A study of Rattus norvegicus with 8 samples.

Results

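Cadherins and protocadherins were measured in RNA from male Sprague Dawley rats, in hippocampus and in hypothalamus. A member was every gene symbol in the deposited tables that starts with Cdh and a number, or with Pcdh. There were 39 such symbols among 16514 symbols in all, 29 that do not belong to the clustered protocadherins and 10 that do. Cdh4, Cdh12, Cdh18, Cdh24, Pcdh1 and Pcdh10, non-clustered genes that RefSeq lists, were in neither table under these symbols. Counts, shares and orders of the family below therefore cover the listed members only. The series given here held 4 libraries from each tissue, 8 in all. Every rat was 2 months old when its diet began and drank water with 15% fructose for 6 weeks while eating a diet with the omega-3 fatty acid DHA. All 8 libraries came from this arm, so no effect of fructose or of DHA could be compared, and the contrast was hypothalamus against hippocampus. Whether the libraries stem from different animals, and whether libraries with the same number came from the same rat, is not given in the sources used here.

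Cadherins are membrane proteins that bind cadherins of a neighbouring cell in the presence of calcium. Classical cadherins hold catenins at their tails and so tie junctions and synapses to actin. Non-clustered protocadherins of the delta group bind weakly and signal to actin regulators. Clustered protocadherins are arranged in an alpha, a beta and a gamma array along the chromosome. Each neuron uses a few of their promoters, and the resulting set of surface proteins lets its branches tell themselves from those of other neurons.

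The unit was FPKM, in which fragments are set against transcript length and depth, so that levels of different genes can be set side by side. Loci sharing a symbol were added up, and the sums were divided by 1 scaling factor per library (0.892 to 1.12), and all levels below are on this scale. The tissues lay in separate tables that were made apart, so levels are placed side by side and calls use no p-value across tables. A gene was compared when its mean over the 8 libraries was at least 1 FPKM. It was called higher or lower in hypothalamus when its mean log2(FPKM + 1) differed by at least 1 and no library of a tissue overlapped with those of the other. The +1 understates differences of low genes, so ratios of mean FPKM stand beside them. In bulk tissue, fewer cells of a type and less RNA per cell cannot be told apart.

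Libraries carried the markers of their labelled tissue. All 6 compared hippocampus markers were lower in hypothalamus and all 7 compared hypothalamus markers were higher, while Fibcd1, a CA1 marker, was listed at 0 in every library. Choroid plexus markers (9 genes summed) stood at 6964 and 5183 FPKM in hippocampus replicates 3 and 4 and at 36.0 to 120.3 in the other 6 libraries. Pineal markers (7 genes) stood at 328 FPKM in hippocampus replicate 4 and at 0.685 to 2.98 in the others. Without hippocampus replicates 3 and 4, a setting chosen after the data were seen, 4 members were still called higher and 4 lower in hypothalamus. Single results that turn on these libraries are given with and without them below.

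Promoters of beta protocadherins are shown for a short word that many of them share. RefSeq promoters of build GRCr8, from 250 bases before to 50 bases after the gene start, were at hand for 29 of the 39 members, including all 10 clustered ones. The 10-base word shared by the most promoters among 35 of clustered protocadherins was GGTGGCGCTG, present in 15 of 19 beta promoters and in none of 16 alpha and gamma promoters on either strand. Over all 33469 promoters of the same length it was present in 74, or 0.221%. The word was picked for being shared, so its count among these promoters is a description. It contains CGCT, which alone was in 60.9% of all promoters, 84.2% of the beta promoters and 75% of the alpha and gamma promoters. Stretches around the word, in capitals, are shown for the beta genes listed for hippocampus and for Pcdhb8, on the plus strand from 5′ to 3′. Pcdhb2, Pcdhb4 and Pcdhb5 hold the word too and are not shown.

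Pcdhb3 at chr18:29285589-29285648: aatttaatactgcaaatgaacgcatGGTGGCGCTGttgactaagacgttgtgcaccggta
Pcdhb6 at chr18:29320141-29320196: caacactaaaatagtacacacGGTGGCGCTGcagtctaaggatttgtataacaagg
Pcdhb8 at chr18:29339243-29339302: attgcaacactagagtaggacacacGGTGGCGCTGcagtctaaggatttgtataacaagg
Pcdhb9 at chr18:29379233-29379292: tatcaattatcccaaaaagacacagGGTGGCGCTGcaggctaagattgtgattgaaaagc
Pcdhb20 at chr18:29485795-29485854: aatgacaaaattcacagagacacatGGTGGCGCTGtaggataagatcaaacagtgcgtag
Pcdhb21 at chr18:29492134-29492193: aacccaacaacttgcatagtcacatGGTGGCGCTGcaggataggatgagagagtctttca

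In 7 of the 9 listed beta genes the word began 52 to 71 bases before the RefSeq start. In Pcdhb6 and Pcdhb8 it began 229 and 208 bases before it. Outside the word these genes shared 43 of 46 aligned flanking bases, or 93.5%, whereas the other 35 pairs shared 34.8 to 64.0%. Pcdhga7, the listed gamma member, did not hold the word in this window.

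Across the family, 8 of 28 compared members were called, against 26.7% of all 10554 genes compared. Cdh23, Cdh1, Pcdh11x and Cdh5 were higher in hypothalamus (4 members, against 13.3% of all genes), and Cdh9, Pcdh20, Cdh8 and Pcdh19 were lower (4 members, against 13.4%). The share of members called was near that of all genes. Libraries did not overlap for 14 of the 28 members, against 53.4% of all genes. As an alternative, limma was run at an adjusted p limit of 0.05 and the same size limit. Its p-values cannot part tissue from table. Without the replicate number limma called 8 members and 27.3% of all genes. With the number as a block it called 8 members and 27.5%. The median difference of the members was 0.29 and that of all genes was -0.04. With values as deposited, the members called were 4 higher and 3 lower, while the median of all genes moved to 0.18 and 65.3% of all calls were higher, in place of 49.8%. The joint scaling underlies every difference below.

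**Figure D1:**
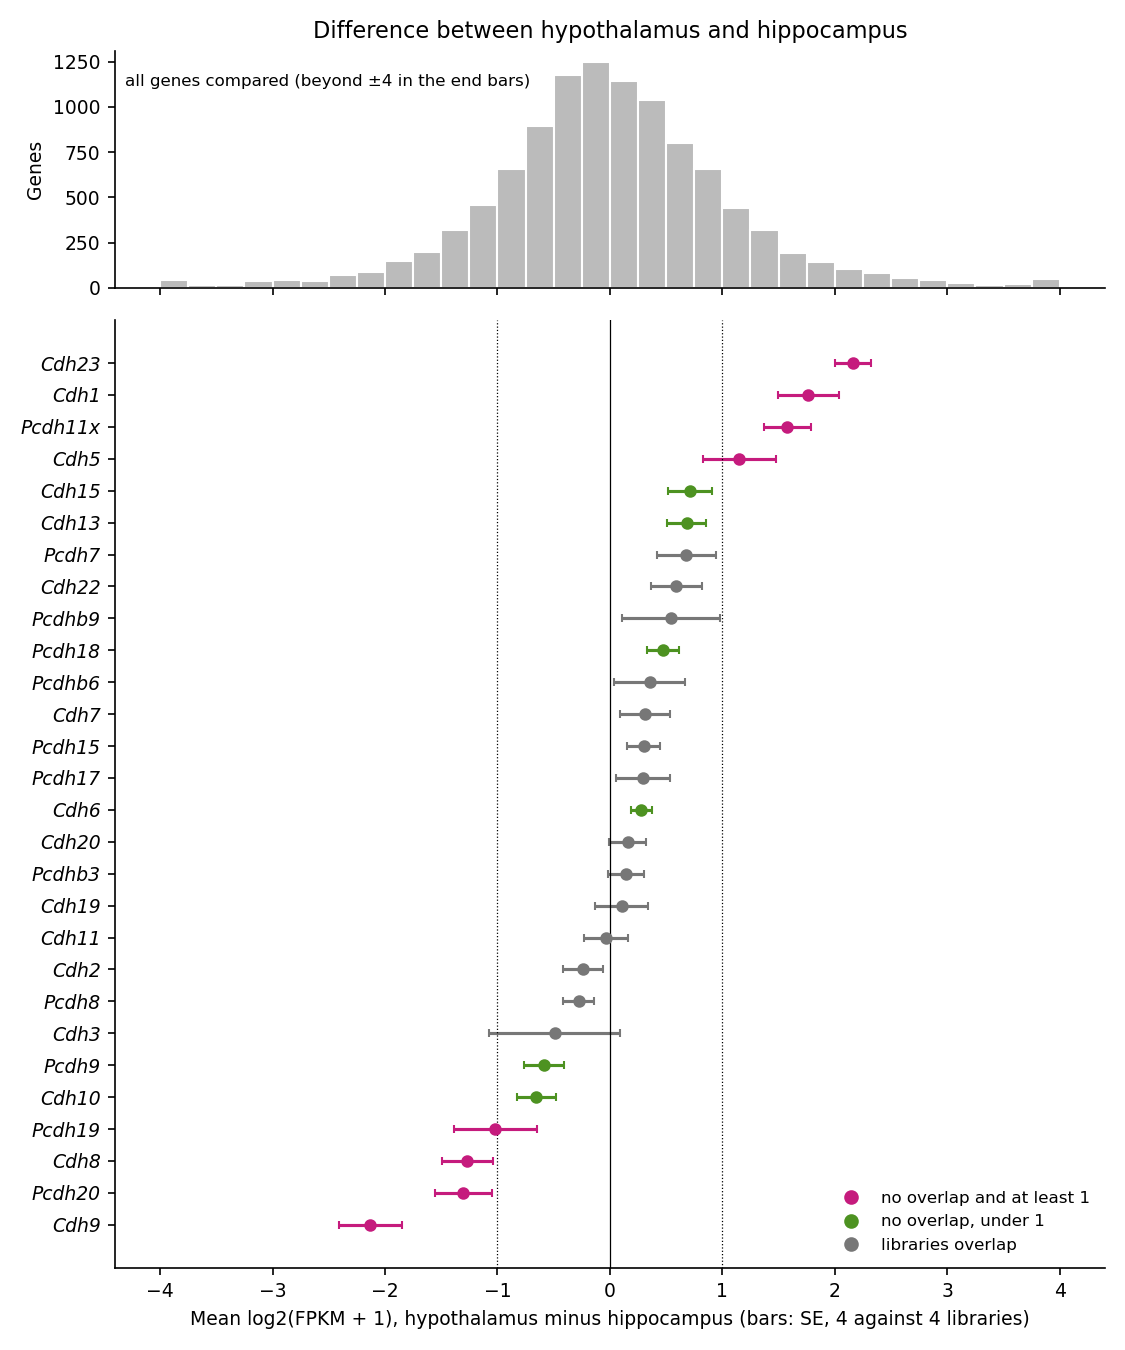
Upper panel: number of genes by difference in mean log2(FPKM + 1), hypothalamus minus hippocampus, for all 10554 genes compared. Lower panel: the 28 compared members with the SE over 4 against 4 libraries and dotted lines at the limit of 1 in either direction. Cdh23 lies farthest to the right at 2.16 and Cdh9 farthest to the left at -2.13, and most members lie within the bulk of all genes.

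Type I classical cadherins were led by Cdh2, which encodes N-cadherin, the main classical cadherin of neurons and synapses. Cdh2 stood at 48.6, 70.3, 43.3 and 41.0 FPKM in hippocampus replicates 1 to 4 and at 40.1, 45.4, 44.1 and 38.5 FPKM in hypothalamus. The tissues overlapped, with replicate 2 of hippocampus above all other libraries, and the difference was -0.24 ± 0.18 (SE). Cdh2 was among the 2 highest members in every library.

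Cdh1, encoding E-cadherin of epithelial junctions, was at 0.159, 0.352, 0.267 and 0.769 FPKM in hippocampus and at 2.94, 6.63, 2.93 and 2.95 FPKM in hypothalamus. All hypothalamus libraries lay above all hippocampus libraries, and replicate 2 of hypothalamus was the highest. The means were 9.99-fold apart, with a difference of 1.76 ± 0.27 on the log2(FPKM + 1) scale. Of 8 compared meningeal and fibroblast markers 5 were higher in hypothalamus too, where 13.3% of all genes were. The sum of 10 was 32.7 to 145 FPKM in hippocampus and 188 to 615 in hypothalamus, and replicate 2 of hypothalamus was again the highest. In hypothalamus replicates 1, 3 and 4 the sum was 188, 395 and 515 FPKM, while Cdh1 hardly differed. Igf2 was the largest part of these sums, at 74.2, 210 and 336 FPKM. It had the highest mean of the list in hypothalamus, 244 ± 130 FPKM. Igf2 was not called, since hippocampus, at 5.91, 10.2, 80.9 and 79.6 FPKM in replicates 1 to 4, overlapped with it. With values as deposited 7 of the 8 compared markers were higher. Col1a2 of this list stood at 0 in every library. Pituitary and pars tuberalis markers were higher for 6 of 6 compared, against 13.3% of all genes. Their sum of 10 was at 39.5 to 104 FPKM in hippocampus and 415 to 835 in hypothalamus. In hippocampus nearly all of it was Chga, at 39.1, 86.9, 61.0 and 103 FPKM, and every other gene was at 1.18 FPKM or less. In hypothalamus Chga was at 214, 508, 414 and 359 FPKM and Cga at 293, 279, 162 and 18.2. Prl was listed at 0 in every library, and Gh1 and Fshb had means of 0.0673 and 0.0494 FPKM in hypothalamus. The part of these tissues in the Cdh1 level was not tested.

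Cdh3, encoding P-cadherin of epithelia, was uneven within hippocampus. It stood at 0.172, 0.347, 4.95 and 3.06 FPKM in hippocampus and at 0.908, 0.825, 0.626 and 0.723 FPKM in hypothalamus. The libraries that were high were replicates 3 and 4 of hippocampus, the same 2 that were high in choroid plexus markers. Ttr, encoding the transthyretin that choroid plexus secretes, was at 38.7, 37.5, 6638 and 4990 FPKM in hippocampus replicates 1 to 4. The difference of Cdh3 was -0.49 ± 0.58 over all libraries and 0.49 when hippocampus replicates 3 and 4 were left out, the setting chosen after the data were seen. The part of choroid plexus in the Cdh3 level was not tested.

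Cdh15, encoding M-cadherin, first known from muscle, was at 2.14, 0.941, 0.819 and 1.47 FPKM in hippocampus and at 2.57, 2.41, 2.86 and 3.20 FPKM in hypothalamus. The libraries did not overlap, and the difference of 0.71 ± 0.19 fell short of the limit. It passed at 1.07 with a pseudocount of 0.1.

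**Figure D2:**
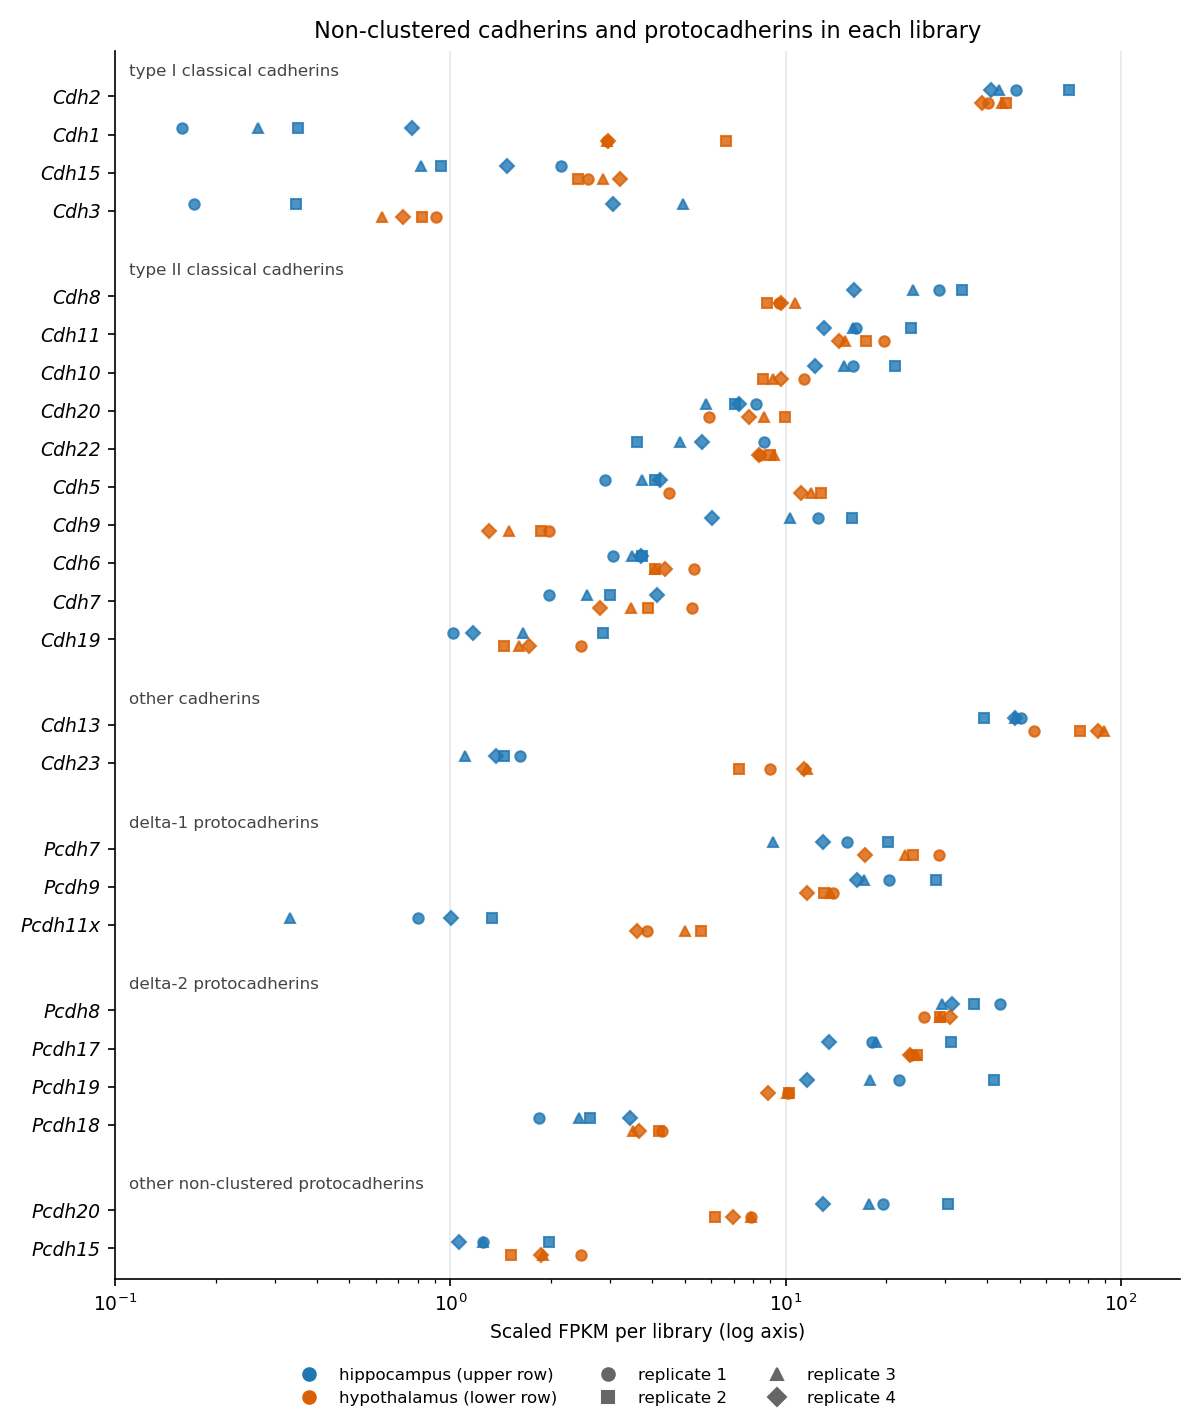
Scaled FPKM (log axis) of the 25 compared non-clustered members in each library, grouped by class, with hippocampus in the upper row and hypothalamus in the lower row of each gene and a symbol for each replicate. Cdh9 and Cdh8 lie to the right in hippocampus and Cdh23, Cdh1 and Pcdh11x in hypothalamus, and Cdh3 is split within hippocampus between 0.172 and 4.95 FPKM.

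Type II classical cadherins mark subsets of neurons and other cells and bind with partner preferences within their class. Of 10 compared, 2 were lower in hypothalamus, 1 was higher and 7 were neither, with a median difference of 0.13. The 3 called are near the share of all genes called, 26.7%. Cdh9, known from synapses between dentate gyrus and CA3 neurons, was at 12.5, 15.8, 10.3 and 6.02 FPKM in hippocampus and at 1.97, 1.87, 1.49 and 1.30 FPKM in hypothalamus. Every hippocampus library lay above every hypothalamus library, the means were 6.73-fold apart, and the difference was -2.13 ± 0.28.

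Cdh8, a type II cadherin of excitatory circuits, was at 28.6, 33.6, 24.1 and 16.0 FPKM in hippocampus and at 9.54, 8.83, 10.7 and 9.70 FPKM in hypothalamus. The hypothalamus libraries were close together and all lower, with a 2.64-fold gap of the means and a difference of -1.27 ± 0.23. Cdh10, which is closely related to Cdh6 and Cdh9, was at 15.9, 21.2, 14.9 and 12.3 FPKM against 11.4, 8.55, 9.16 and 9.67 FPKM. Its libraries did not overlap, and the difference of -0.66 ± 0.17 stayed under the limit. With Cdh5 and Cdh6, for which every hypothalamus library was the higher, 5 of 10 type II members did not overlap, against 53.4% of all genes.

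Cdh5, encoding VE-cadherin of endothelial junctions, was at 2.89, 4.07, 3.72 and 4.21 FPKM in hippocampus and at 4.50, 12.8, 11.9 and 11.1 FPKM in hypothalamus. Replicate 1 of hypothalamus lay just above the hippocampus range and the other 3 well above it. The difference was 1.15 ± 0.32, and 1.46 without hypothalamus replicate 1. Of 9 other endothelial markers compared, 0 were called higher in hypothalamus (against 13.3% of all genes), 3 lower (against 13.4%) and 6 neither. Their sum over 10 genes was 161 to 196 FPKM in hippocampus and 92.5 to 136 in hypothalamus, lowest in replicate 1, and Ly6c was at 0 in 2 hippocampus libraries. Cldn5, a tight junction gene, was at 77.5 ± 18.9 FPKM in hippocampus (SD, n = 4) and 33.8 ± 4.01 in hypothalamus. Esam, an endothelial adhesion gene, differed by -1.39 ± 0.19. Cldn5 and Esam weighed most in the hippocampus sum. Pecam1, a junction gene, was at 7.21 ± 0.39 and 12.8 ± 4.21 with an overlap. Eng (11.7 ± 1.30 and 19.8 ± 6.04) and Tie1 (6.59 ± 1.39 and 8.20 ± 1.83) also had higher means in hypothalamus with an overlap. The means of Flt1, Kdr, Tek and Emcn were lower there. With values as deposited 1 of the 9 was lower and none higher.

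**Figure D3:**
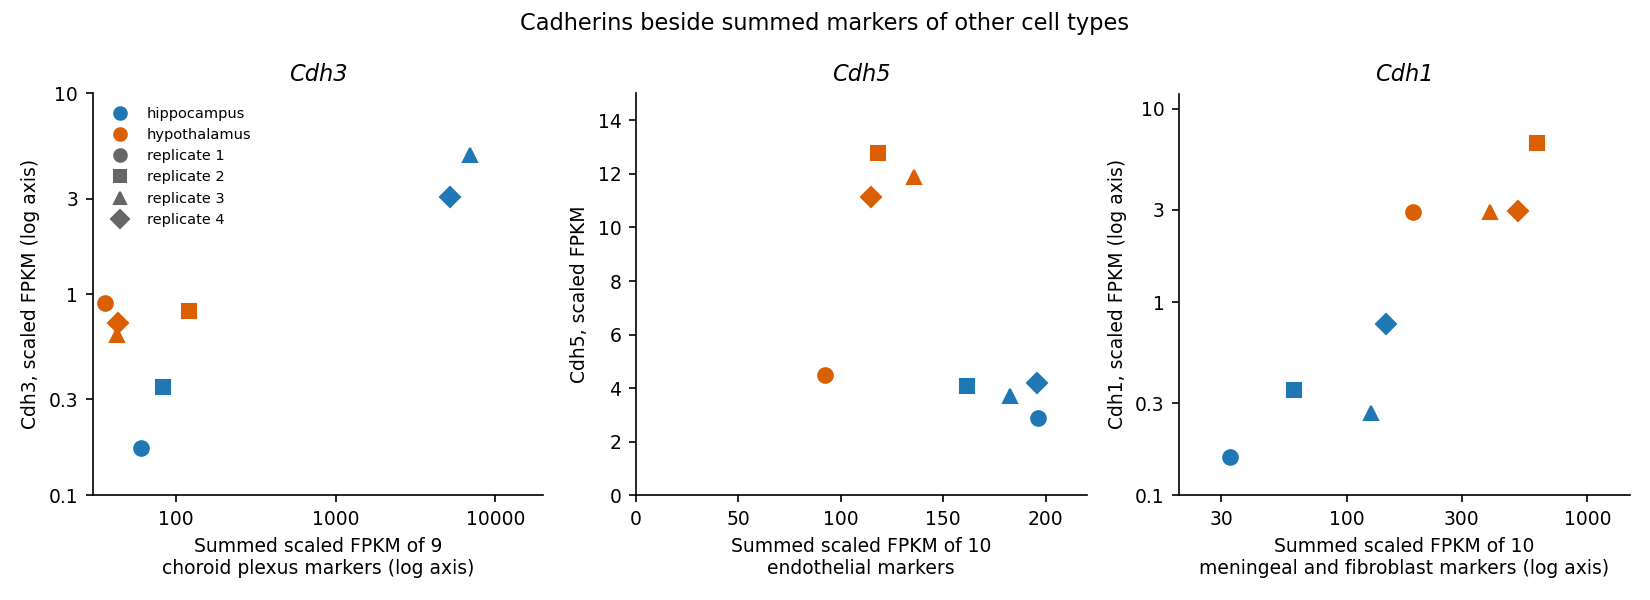
Level of a cadherin in each library against the summed level of markers of other cell types, with log axes for Cdh3 and Cdh1 and linear axes for Cdh5. Cdh3 is high in the 2 hippocampus libraries with choroid plexus marker sums of 5183 FPKM or more. Cdh5 is high in 3 hypothalamus libraries whose endothelial marker sums lie under those of hippocampus, where Cldn5 and Esam weigh most. Cdh1 is highest in the library with the highest meningeal marker sum, while the other hypothalamus libraries have like Cdh1 levels at differing sums. Igf2 is the largest part of the meningeal marker sum in every hypothalamus library.

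None of the other 6 type II cadherins was called, which does not show equal levels. Cdh11, known from mesenchyme and also found in neurons, was at 16.2, 23.8, 15.9 and 13.0 FPKM in hippocampus and 19.6, 17.3, 15.0 and 14.4 FPKM in hypothalamus. Its difference of -0.03 ± 0.20 took either sign with the scaling, at 0.19 with values as deposited. Cdh20 stood at 5.80 to 8.14 FPKM against 5.93 to 9.96, and Cdh7 at 1.97 to 4.13 against 2.80 to 5.27. Cdh22, first described in pituitary and brain, was at 3.61 to 8.62 FPKM in hippocampus, with replicate 1 the highest, and at 8.33 to 9.24 in hypothalamus. Cdh6 was at 3.06 to 3.73 FPKM against 4.07 to 5.35, with no overlap and a difference of 0.28 ± 0.09. Cdh19, found in glia of the oligodendrocyte and Schwann cell lines, was at 1.02 to 2.86 FPKM against 1.45 to 2.46.

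Among cadherins outside these classes, Cdh13 had the highest mean of the family in hypothalamus. It encodes T-cadherin, which has no cytoplasmic tail, is anchored to the membrane by a lipid and binds adiponectin. Cdh13 stood at 50.3, 39.1, 48.4 and 48.5 FPKM in hippocampus and at 55.3, 75.6, 88.9 and 85.5 FPKM in hypothalamus. The libraries did not overlap, replicate 1 of hypothalamus lay nearest to hippocampus, and the difference was 0.68 ± 0.17, under the limit. A second locus of the symbol, listed for hippocampus alone, held 2.44% of the hippocampus sum.

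Cdh23 encodes a long cadherin that pairs with Pcdh15 in the tip links of hair cells of the inner ear. It stood at 1.62, 1.45, 1.10 and 1.37 FPKM in hippocampus and at 8.96, 7.25, 11.6 and 11.3 FPKM in hypothalamus. The groups were far apart, with means 7.07-fold apart and a difference of 2.16 ± 0.16. This was the highest difference among the members with summed loci and a pseudocount of 1, whereas Cdh1 was higher by the ratio of means (9.99), with a pseudocount of 0.1 (3.08 against 2.72) and with the highest locus alone (1.76 against 1.70). The symbol had 2 loci in the table of hypothalamus and 1 in that of hippocampus. The weaker locus held 28.9% of the hypothalamus sum, and with the highest locus alone the difference was 1.70. Pcdh15, its partner in the ear, was at 1.06 to 1.97 FPKM in hippocampus and 1.51 to 2.45 in hypothalamus and overlapped, with a difference of 0.30 ± 0.15.

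The delta-1 protocadherins differed among themselves. Pcdh11x, an X-linked member, was at 0.799, 1.33, 0.333 and 1.01 FPKM in hippocampus and at 3.87, 5.59, 5.01 and 3.60 FPKM in hypothalamus. All hypothalamus libraries were higher, by 5.21-fold in the means, and the difference was 1.58 ± 0.21. Pcdh7, which binds protein phosphatase 1 at its tail, was at 15.2, 20.2, 9.18 and 12.9 FPKM against 28.7, 23.9, 22.7 and 17.3 FPKM. Replicate 2 of hippocampus lay within the hypothalamus range, and the difference was 0.68 ± 0.26. Pcdh9 pointed the other way, at 20.3, 28.0, 17.1 and 16.3 FPKM in hippocampus and 13.9, 13.0, 13.6 and 11.6 FPKM in hypothalamus, with no overlap and a difference of -0.59 ± 0.18. So of 3 compared delta-1 members 1 was higher by the measure, where 13.3% of all genes were, and 2 were neither.

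Delta-2 protocadherins recruit actin regulators of the WAVE complex or a kinase that drives N-cadherin from the surface. Pcdh8, also called arcadlin and induced by neuronal activity, was at 43.7, 36.6, 29.3 and 31.4 FPKM in hippocampus and 25.8, 28.8, 28.9 and 30.9 FPKM in hypothalamus. The tissues overlapped, with a difference of -0.28 ± 0.14. Its hippocampus sum joined 2 loci, the weaker with 15.7% of the sum, and with the highest locus alone the difference was -0.04.

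Pcdh19, an X-linked gene mutated in a form of epilepsy that spares most carrier males, was at 21.8, 41.9, 17.9 and 11.6 FPKM in hippocampus. In hypothalamus it was at 10.2, 10.2, 10.1 and 8.89 FPKM. The hippocampus libraries spread widely and replicate 4 came close to the hypothalamus range, yet none overlapped. The difference of -1.02 ± 0.37 lay at the limit. It was -0.70 without hippocampus replicate 2, -0.98 without hypothalamus replicate 4 and -0.80 with values as deposited, none of which passed.

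Pcdh17, found along cortico-striatal pathways, was at 18.1, 31.3, 18.6 and 13.5 FPKM in hippocampus and at 23.6, 24.7, 24.6 and 23.6 FPKM in hypothalamus. The hypothalamus values nearly coincided and fell within the hippocampus range. They were sums over 3 loci, against 1 locus in hippocampus. The main locus, with 90.9% of the hypothalamus sum, was at 21.8, 22.2, 23.4 and 20.3 FPKM and so spread more. Pcdh18 was at 1.84 to 3.44 FPKM against 3.52 to 4.29, with no overlap and a difference of 0.47 ± 0.14. Its hippocampus symbol was split between 2 loci with 57.6 and 42.4% of the sum. With the highest locus taken in each library the difference was 0.94. That was the locus with 42.4% in hippocampus replicate 1 and the locus with 57.6% in the other replicates. The 0.94 is therefore not the value of a single locus, and whether either locus alone passes the limit was not tested.

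Pcdh20, a non-clustered protocadherin outside the delta groups, was at 19.5, 30.5, 17.7 and 12.9 FPKM in hippocampus and at 7.89, 6.18, 7.92 and 6.97 FPKM in hypothalamus. Every hippocampus library was higher, the means were 2.79-fold apart and the difference was -1.30 ± 0.25. Members with a mean under 1 FPKM were not compared. Pcdh12, known from endothelium, was at 0.166 to 0.296 FPKM in hippocampus and 0.243 to 0.268 in hypothalamus. Cdh17, an intestinal cadherin, was at 0 to 0.135 FPKM against 0.171 to 0.285. Cdh26 was at 0 to 0.0699 FPKM against 0.0704 to 0.138, and Cdh16, a kidney cadherin, was at 0.0298 FPKM or less in every library.

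Clustered protocadherins were low in both tables and incompletely matched between them. Of the 10 listed, 5 were in the table of hippocampus, 9 in that of hypothalamus and 4 in both. RefSeq lists 38 protein-coding genes of these clusters, 22 of them beta genes, so most genes of the arrays were not analysed here. No alpha member was among those listed, and Pcdhga7 was the gamma member. Genes of the arrays resemble each other and gamma genes share their last exons, so the way in which reads were divided among them is uncertain.

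Pcdhb3 stood at 2.22, 2.20, 1.85 and 1.61 FPKM in hippocampus and 3.22, 2.11, 2.33 and 1.60 FPKM in hypothalamus, with overlap and a difference of 0.14 ± 0.16. Pcdhb6 was at 0.281, 1.72, 0.827 and 0.479 FPKM against 0.592, 2.22, 1.22 and 1.21 FPKM, highest in replicate 2 of each tissue. Pcdhb9 was at 0.416, 0.938, 0.893 and 0.746 FPKM in hippocampus and 0.0536, 2.25, 2.58 and 2.33 FPKM in hypothalamus. Here replicate 1 of hypothalamus was the lowest of all 8 and the other 3 were the highest. Without hypothalamus replicate 1 the difference of Pcdhb9 was 0.96 in place of 0.54 ± 0.43. Pcdhb21, under 1 FPKM on average, was at 0.265 to 0.838 FPKM against 0.155 to 0.235, with no overlap. Of the 3 clustered members compared none was called and all overlapped. Among all genes 26.7% were called and 53.4% did not overlap, and 3 members are too few to set against these shares.

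The remaining clustered members were in 1 table each. Pcdhb20 was listed for hippocampus, at 1.81, 1.50, 0.696 and 0.418 FPKM. For hypothalamus, Pcdhb8 was at 1.52, 1.74, 1.78 and 1.39 FPKM, Pcdhga7 at 1.56, 2.17, 1.34 and 1.82 FPKM, and Pcdhb4 at 1.28, 1.27, 1.23 and 0.693 FPKM. Pcdhb2 and Pcdhb5 were at 0.572 FPKM or less in every hypothalamus library, Pcdhb5 at 0 in 1 of them. In current RefSeq, Pcdhb2 is also a synonym of Pcdhb12 and Pcdhb14 a synonym of Pcdhb20, so that a beta symbol in these tables may stand for another gene of the array.

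**Figure D4:**
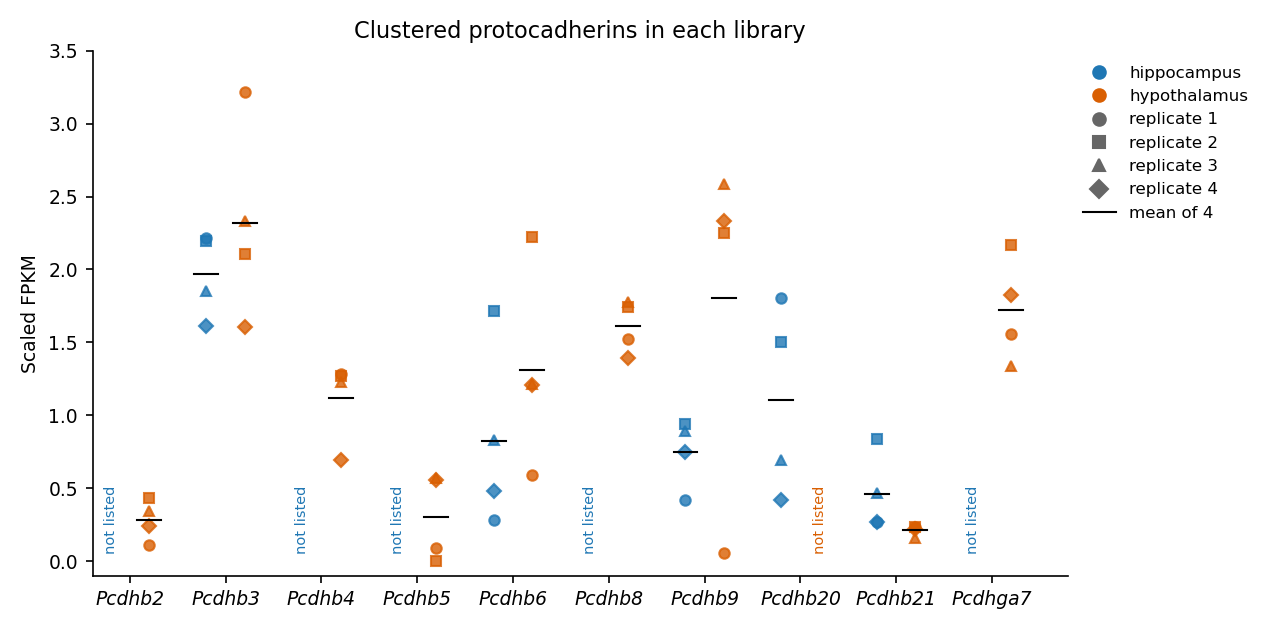
Scaled FPKM of the 10 listed clustered protocadherins in each library, with black lines at the mean of 4 and "not listed" where a table does not hold the symbol. No value exceeds 3.22 FPKM, the tissues overlap for Pcdhb3, Pcdhb6 and Pcdhb9, and Pcdhb9 in hypothalamus replicate 1 lies apart at 0.0536.

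The make-up of the family was compared within each library, where scaling factors cancel. Members summed to 278 to 433 FPKM in hippocampus and 315 to 356 FPKM in hypothalamus. Cdh13 held 9.04 to 17.5% of the sum in hippocampus and 17.5 to 25.7% in hypothalamus, and Cdh2 held 13.9 to 16.2% and 11.6 to 13.1%. The cadherins outside the classical types held 14.6 ± 3.72% in hippocampus (SD, n = 4) and 25.5 ± 4.03% in hypothalamus, without overlap. Type II cadherins held 27.7 ± 0.97% and 22.1 ± 1.12%, and delta-2 protocadherins 23.6 ± 1.99% and 19.7 ± 0.67%, each without overlap. Non-clustered protocadherins outside the delta groups held 6.24 ± 1.01% and 2.80 ± 0.44%, also without overlap. Type I cadherins held 16.0 ± 0.96% and 14.6 ± 0.97%, and delta-1 protocadherins 10.4 ± 1.16% and 12.1 ± 2.05%, each with overlap.

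Clustered protocadherins held 1.48 ± 0.17% of the sum in hippocampus and 3.15 ± 0.35% in hypothalamus, where more of them were listed. Over the symbols in both tables the shares were 1.17 ± 0.20% (0.916 to 1.33%) and 1.69 ± 0.28% (1.32 to 2.00%). On that basis hippocampus replicate 3 and hypothalamus replicate 1 overlapped.

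**Figure D5:**
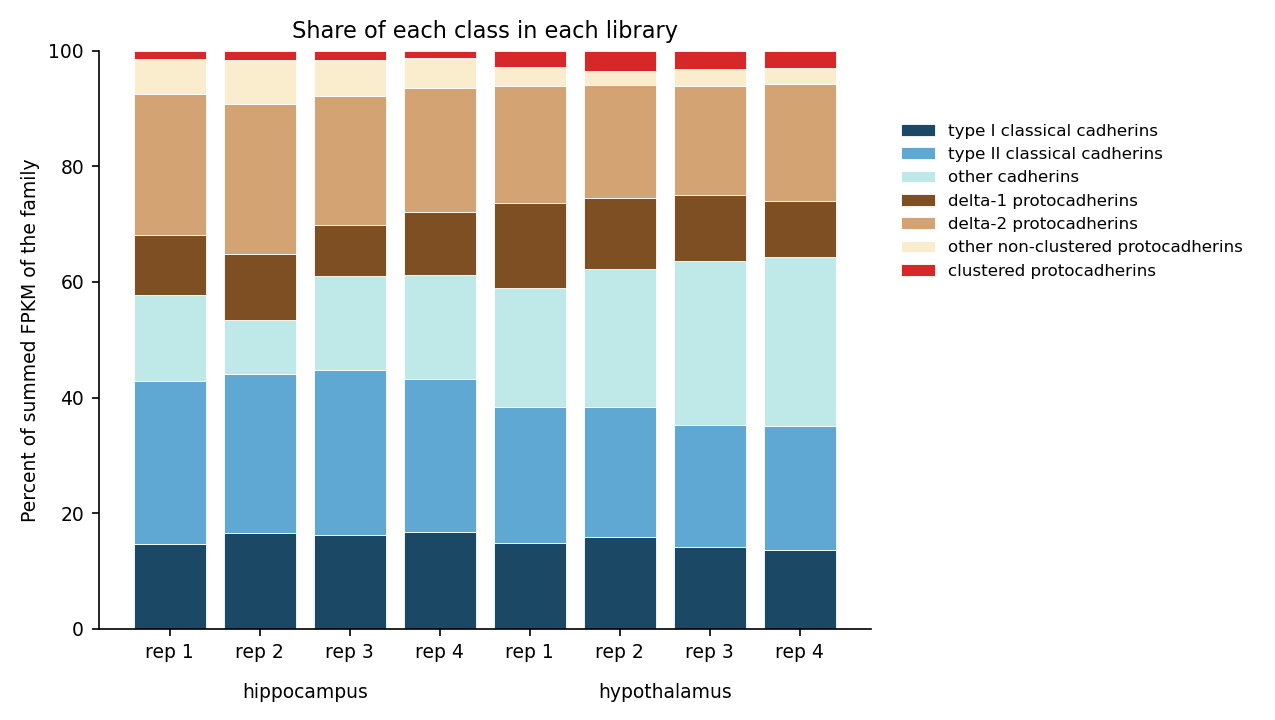
Percent of the summed FPKM of the listed members held by each class in each of the 8 libraries. The cadherins outside the classical types, mostly Cdh13, take 9.39 to 18.0% in hippocampus and 20.5 to 29.2% in hypothalamus, and the clustered protocadherins take at most 3.58% in any library.

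In hippocampus, Cdh2 at 50.8 ± 13.4 FPKM, Cdh13 at 46.6 ± 5.04, Pcdh8 at 35.2 ± 6.42 and Cdh8 at 25.6 ± 7.48 led the order of levels. Of the 33 neighbouring pairs in that order 1 did not overlap, so the order is loose. In hypothalamus, Cdh13 at 76.3 ± 15.1 FPKM, Cdh2 at 42.0 ± 3.23 and Pcdh8 at 28.6 ± 2.09 led. Each of these 3 lay in every library above all libraries of the next, Pcdh8 above Pcdh17, and 8 of 37 neighbouring pairs did not overlap.

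The spread between libraries is given as the SD over the mean. Among members with a mean of at least 5 FPKM its median was 27.9% for 14 members in hippocampus, against 19.2% for all genes there. It was 11.5% for 15 members in hypothalamus, against 14.7% for all genes. Pcdh19 had the highest value in hippocampus, 56.3%, and Cdh5 in hypothalamus, 37.5%. Of the 14 hippocampus members 10 were highest in replicate 2, against 38.4% of all genes, and 9 were lowest in replicate 4, against 29.5% of all genes.

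Catenins and other partners of cadherin tails were given by a list of 25 genes, of which 22 were compared. In hypothalamus 8 were called lower, 0 higher and 14 showed neither, with a median difference of -0.61 against -0.04 for all genes, of which 13.4% were called lower and 13.3% higher. With values as deposited 6 were lower and the median was -0.39. Those called were 2 armadillo proteins (Arvcf, a catenin of the p120 group, and Pkp2), 4 genes of the WAVE complex that branches actin (Nckap1, Cyfip2, Wasf1 and Abi1) and the kinases Ptk2b and Fyn. Ptk2b, a kinase that clustered protocadherins bind, was at 184, 215, 170 and 117 FPKM in hippocampus and at 10.5, 14.6, 14.5 and 13.6 FPKM in hypothalamus, a difference of -3.57 ± 0.21. Pkp2, a plakophilin, was at 18.3 ± 3.03 FPKM against 2.59 ± 0.62 and Wasf1 at 154 ± 32.6 against 31.1 ± 8.36. Cyfip2, the list's highest called gene, was at 293 ± 34.4 FPKM against 146 ± 42.7, a difference of -1.05 ± 0.27.

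Beta-catenin binds the tail of classical cadherins, and alpha-catenins join it to actin. Ctnnb1, encoding beta-catenin, was at 141, 174, 159 and 163 FPKM in hippocampus and 115, 121, 107 and 98.9 FPKM in hypothalamus, without overlap and with a difference of -0.52 ± 0.09. Ctnna2, the alpha-catenin of neurons, was at 40.8 ± 4.27 FPKM against 23.8 ± 1.83, a difference of -0.75 ± 0.09. Ctnna1, its relative in epithelia, was at 42.1 ± 12.1 FPKM against 48.3 ± 3.73 and overlapped.

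Other genes of the cadherin superfamily were given by a list of 24, of which 16 were in both tables and 10 compared. Of these, hypothalamus was higher for 3 and lower for 0, with 7 showing neither, where 13.3% of all genes were higher and 13.4% lower. Ret, a receptor kinase with cadherin-like repeats, was at 2.85, 3.47, 2.80 and 2.40 FPKM in hippocampus and 12.6, 11.5, 14.8 and 18.0 FPKM in hypothalamus, a difference of 1.96 ± 0.16. Fat1, a giant cadherin, was at 13.3 ± 1.97 FPKM against 44.4 ± 6.09, and Fat3, of the same group, at 1.05 ± 0.41 against 3.86 ± 1.14. Fat4 and Fat2, also of this group, were under a mean of 1 FPKM and not compared. Fat4 pointed the other way, at 1.47 ± 0.83 FPKM against 0.400 ± 0.075 without overlap. Fat2 was at 0.0142 ± 0.0168 FPKM against 0.279 ± 0.163. Clstn1, a calsyntenin of vesicles and synapses, had the highest level of the list, at 217 ± 38.9 FPKM against 148 ± 15.0.

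Regulators of promoter choice in the protocadherin clusters were given by a list of 19, of which 14 were compared. Ctcf, whose protein binds the promoters of clustered protocadherins, was at 18.0, 25.3, 16.8 and 15.4 FPKM in hippocampus and 14.3, 14.4, 14.1 and 13.5 FPKM in hypothalamus, a difference of -0.38 ± 0.15. The median difference of those compared was -0.21. Smc1a, of the cohesin ring, was at 21.2 ± 1.37 FPKM against 73.3 ± 5.78, a difference of 1.74 ± 0.07. It was the 1 gene of the list called higher, where 13.3% of all genes were. Other cohesin genes did not rise with it. Rad21 was at 62.0 ± 12.3 FPKM against 37.5 ± 2.96, without overlap and with a difference of -0.69 ± 0.15. Smc3 (-0.08 ± 0.18), Stag1 (-0.29 ± 0.18) and Stag2 (-0.04 ± 0.35) overlapped.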

How the data were processed

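Poly-A RNA of 4 hippocampus and 4 hypothalamus libraries had been sequenced on a HiSeq 2000, and the FPKM values were deposited by the authors in 1 table per tissue. Per the submitters' processing notes, the build was rn5 and the tools named are Cuffdiff, Cufflinks, Bowtie2, TopHat2, Bowtie and TopHat. The number of reads per library is not given in the sources used here, so no counting interval could be set. From the deposited FPKM, loci of a symbol were summed and each library was divided by its median ratio to the geometric mean of the 8 libraries. The pseudocount, the minimum mean and the limit on the log2 difference were each 1. Overlap of the 4 against 4 libraries replaced a test across tables. Python 3.11.15, pandas 2.3.3, numpy 2.4.6 and, for alternatives, limma 3.58.1 in R 4.3.3 were used. The call rule was tested on simulated data. Members, gene lists and rules were chosen with earlier results of these data known. Values in every library were printed for members with a mean of at least 10 FPKM in a tissue, or called with a mean of at least 5, and for others where a class is small. Spread between libraries may be technical. The result of 1 gene among the regulators of promoter choice is not reported here.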

Additional observations from a re-analysis of the deposited data

Results flagged for a closer look

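In 4 of 55 sets of 4 libraries 1 library lay far from the other three relative to the range, where chance gives about 1 in 20. Cdh1 in hypothalamus replicate 2 was at 6.63 FPKM and the others at 2.93 to 2.95. Pcdh19 in hypothalamus replicate 4 was at 8.89 FPKM and the others at 10.1 to 10.2. Pcdhb4 in hypothalamus replicate 4 was at 0.693 FPKM and the others at 1.23 to 1.28. Pcdhb9 in hypothalamus replicate 1 was at 0.0536 FPKM and the others at 2.25 to 2.58.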

How the results depend on the processing

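Leaving out each replicate in turn gave 7 or 8 members called (4 higher, 3 or 4 lower) and 2738 to 3064 genes in all. Replicate 1 of both tissues stood apart in how its low values were spaced: 8.20 to 11.3% of values under 0.05 FPKM lay on a common step with another library of its tissue, against 86.7 to 92.0% among replicates 2, 3 and 4. Without replicate 1 of both tissues 8 members and 3112 genes were called, with differences of 1.37 for Cdh5, 0.87 for Cdh13 and 0.87 for Pcdhb9. With a minimum mean of 5 FPKM 2 members were higher, since fewer were compared. Counting every gene without overlap, whatever its size, gave 14 members, 8 of them higher, and 5634 genes, 2708 higher and 2926 lower. Of the members called, Pcdh19 lost its call under other scalings (-0.80 as deposited, -0.80 within each table, -0.91 by upper quartile, -0.95 by quantiles) and without 1 of 2 libraries, and the cause was not tested. Scaling within each table was chosen after the data were seen. Same-numbered libraries deviated together with r from -0.08 to 0.14, so the numbers were not taken as pairs, and 2 of 4 hippocampus libraries correlated best with their own number. limma called 2886 genes and 8 members without the replicate block and 2898 genes and 8 members with the replicate block.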

Other observations

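Some members lie next to each other in RefSeq GRCr8, and their levels can be set side by side. Cdh3 and Cdh1 are neighbours on chromosome 19, where Cdh1 was higher in hypothalamus by 1.76 and Cdh3 differed by -0.49 with overlap. Cdh5 and Cdh11 are neighbours on the same chromosome, with differences of 1.15 and -0.03. Cdh7 and Cdh19 are neighbours on chromosome 13, with differences of 0.31 and 0.10 and overlap for both.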
